A study of Mus musculus with 6 samples.

Results

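The integrated stress response regulators examined here are 10 genes: the eIF2α kinase genes Eif2ak3 and Eif2ak4, the transcription factor and cofactor genes Atf4, Atf5, Atf3, Ddit3 and Nupr1, and the feedback and stress-output genes Trib3, Ppp1r15a and Sesn2. They were taken by name from the 21436 genes of the deposited expression table, and all 10 were found. RNA sequencing had been done on 6 libraries of wild-type mouse 3T3-L1 cells, an embryonic fibroblast line used as a model of preadipocytes. In 3 libraries (co-culture) human umbilical cord mesenchymal stem cells occupied the upper chamber of a Transwell, separated from the 3T3-L1 cells below by a membrane with pores of 0.4 µm. In the other 3 (alone) the upper chamber held no cells. Both groups spent 72 h in the same adipogenic medium of HG-DMEM with 10% FBS, 2 µM rosiglitazone, 1 µM dexamethasone, 0.5 mM IBMX and 10 mg/L insulin, so neither group shows the state before induction. The model is a single cell line, and an upper chamber with other cells than human ones was not analysed here.

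Cells that run short of amino acids, fold proteins poorly in the endoplasmic reticulum, lack heme or carry viral RNA phosphorylate the translation factor eIF2 on its α subunit. This lowers general protein synthesis but favours translation of a few mRNAs, above all that of ATF4, a basic leucine zipper factor that switches on genes for amino acid supply, redox balance and, under lasting stress, cell death. In fibroblasts entering adipogenesis the factor CHOP, encoded by Ddit3, is known to restrain differentiation by pairing with C/EBP proteins. Because ATF4 is controlled largely at translation, and the kinases by their own activity, mRNA levels report neither eIF2α phosphorylation nor ATF4 protein.

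Response elements for ATF4 and related factors were looked for in the promoter windows of RefSeq (build GRCm38.p6), which run from 250 bases before each annotated start through 50 bases from the start on. All 10 genes had at least 1 window, 12 windows in all. The C/EBP-ATF response element, at which ATF4 and C/EBP proteins bind as pairs, was searched as TGATGNAA on both strands. It was found in the windows of 3 of the 10 genes (Atf3, Nupr1 and Trib3) and in 3.97% of all 32851 mouse windows. The cyclic AMP response element TGACGTCA, which reads the same on both strands, was found in 1 gene, Ppp1r15a, and in 1.79% of all windows. For both elements the 10 regulators, with 12 windows, were counted as genes and the background as windows. Those shares are therefore not directly comparable. The endoplasmic reticulum stress response element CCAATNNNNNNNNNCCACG, also searched on both strands, was in none of the 12 and in 0.119% of all windows. The stretches around the matches are shown because they are the only ones found among the regulators, in 3 genes that fell and in Atf3, which was not called. They are written 5′ to 3′ along the gene's own strand, the minus strand in each case, with the match in capitals.

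Trib3, chr2:152344031-152344082: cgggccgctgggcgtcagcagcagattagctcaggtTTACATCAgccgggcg
Nupr1, chr7:126625537-126625616: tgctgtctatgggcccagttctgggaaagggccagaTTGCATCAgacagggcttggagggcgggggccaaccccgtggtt
Atf3, chr1:191183400-191183479: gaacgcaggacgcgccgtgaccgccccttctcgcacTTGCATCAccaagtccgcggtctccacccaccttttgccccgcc
Ppp1r15a, chr7:45526239-45526316: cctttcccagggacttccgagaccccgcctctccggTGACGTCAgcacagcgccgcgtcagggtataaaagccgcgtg

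In Nupr1 and Atf3 the same letters, TTGCATCA, began 110 bases before the RefSeq start. In Trib3 the match began 15 bases into the RefSeq transcript, counting the start as 1. The GENCODE gene starts 28 bases downstream of the RefSeq start, so the match lies just before the GENCODE start. The GENCODE genes of Atf3 and Nupr1 start kilobases further upstream than the RefSeq starts, so both matches lie inside the GENCODE genes. In Ppp1r15a the match began 12 bases before the start. A match is a description of letters and does not show binding, and windows of this length miss elements that lie further away.

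Levels are given in FPKM, a count of fragments scaled to gene length and to the library total. The library totals, recovered from the values, were 29603755 to 37612585 reads in co-culture and 36119750 to 38357563 alone. Defining fibroblast and preadipocyte genes were abundant, with Col1a1, the main chain of type I collagen, at a mean of 416 FPKM in co-culture and 392 FPKM alone. Of the 10 tested genes of the 11-gene preadipocyte and fibroblast list 6 were called higher and 2 lower in co-culture, where 13.9% of all genes tested were called higher and 17.9% lower. The gene of that list below the filter was Cd34, near 0 with 5 reads over the 3 libraries of each group. Adipocyte markers were near 0 in both groups (Adipoq had 0 reads in co-culture and 1 read alone) except Fabp4, at a mean of 58.2 FPKM in co-culture and 53.4 FPKM alone. The markers of endothelium summed to 11 to 20 reads per library in co-culture and 11 to 18 alone, and those of epithelium to 1 to 6 reads in co-culture and 2 to 5 alone. The 6 macrophage markers summed to 15.2 to 18.4 FPKM in co-culture and 17.03 to 20.6 FPKM alone, most of it Cd14 and Cd68, while Adgre1 had 1 read in each group. Lyz2, also carried by neutrophils, was at 0.411 ± 0.165 FPKM in co-culture and 1.248 ± 0.554 FPKM alone (SD, n = 3 each), without overlap and below the filter for testing. The 12 red cell and neutrophil markers summed to 3.82 to 21.4 FPKM in co-culture and 20.1 to 37.0 FPKM alone. Of the 4 of them that were tested 2 were called lower, Hba-a1 and Hbb-bs. Their means were 0.844 and 0.822 FPKM in co-culture and 1.98 and 3.64 FPKM alone. Both therefore passed the filter of 1 FPKM only through the group in which they were higher. In co-culture replicate 1, which had the lowest sum, 10 of the 12 markers were at 0. Without that library 6 regulators were called lower and 0 higher, against 6 and 1 with all libraries. Mitochondrially encoded transcripts took 4.82% to 4.996% of reads in co-culture and 4.40% to 4.62% alone. The part of these differences in the results was not tested. In such bulk samples, fewer cells of a type and less RNA per cell cannot be told apart.

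Of the 10 regulators, 6 fell in co-culture, 1 rose and 3 did not pass the test. The falls were those of Trib3, Ddit3, Ppp1r15a, Atf5, Atf4 and Nupr1, the rise was that of Eif2ak4, and Atf3, Sesn2 and Eif2ak3 were not called. The test was limma on log2(FPKM + 1) over the 10055 genes whose 6-library mean reached 1 FPKM, with Benjamini-Hochberg adjustment and a threshold of 0.05. All 10 regulators passed the filter on low values. Among all genes tested 17.9% were called lower and 13.9% higher, so the share of regulators called lower lies above that of all genes and the single rise lies near it. The values of co-culture and alone libraries did not overlap for 7 regulators, 6 lower and 1 higher, and for 46.1% of all genes tested, 24.8% lower and 21.3% higher. The median log2 change was −0.22 over the 10 regulators and −0.0037 over all genes tested. The labels do not say whether replicates were separate cultures, so the p-values measure the spread between these libraries, which may be technical.

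**Figure D1:**
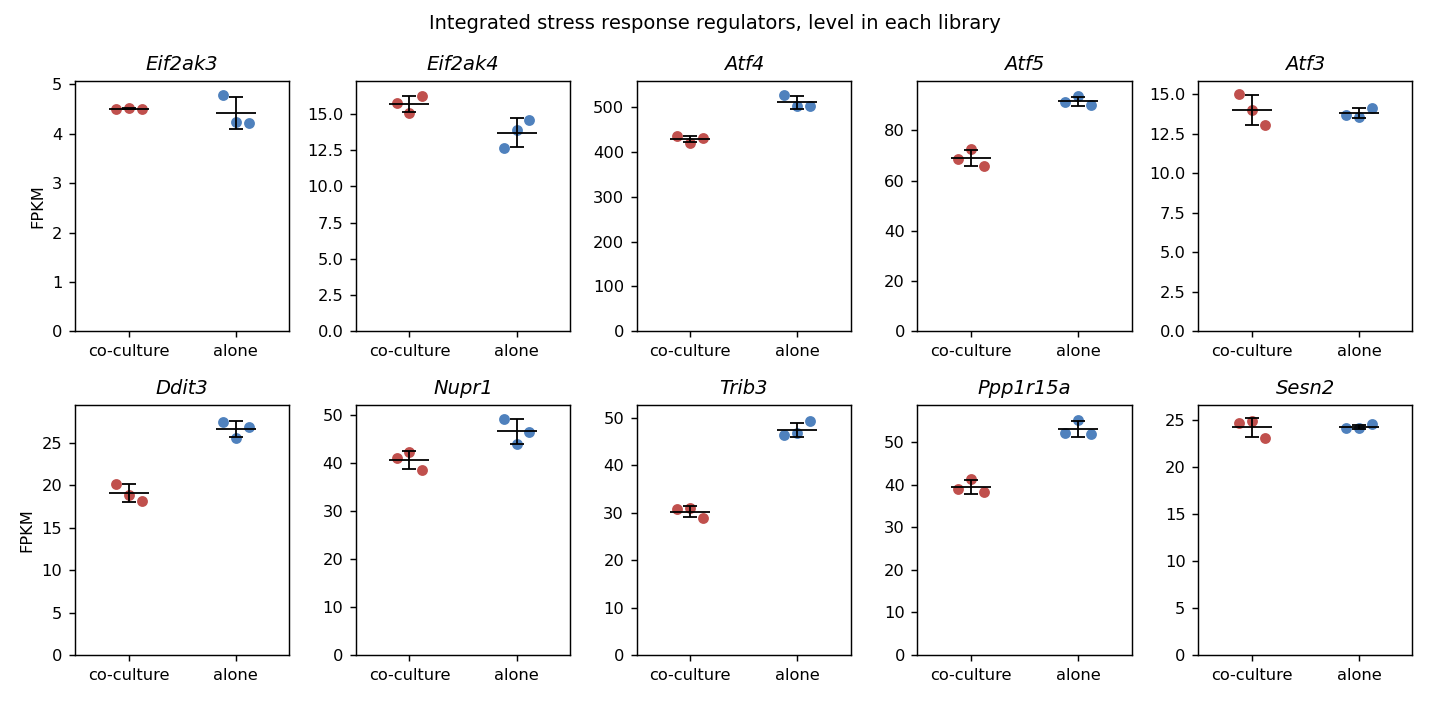
FPKM (vertical axes, each from 0) of the 10 regulators in each of the 3 co-culture and 3 alone libraries, as points, with the mean and SD of each group in black. The groups do not overlap for Eif2ak4, which is higher in co-culture, or for Atf4, Atf5, Ddit3, Nupr1, Trib3 and Ppp1r15a, which are lower, and they overlap for Eif2ak3, Atf3 and Sesn2.

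The kinases head the pathway. Eif2ak4 encodes GCN2, which senses uncharged tRNA when amino acids are scarce. It lies on chromosome 2 (118388583 to 118475234, plus strand). Its level was 15.8, 15.1 and 16.2 FPKM in co-culture replicates 1 to 3, against 12.6, 13.9 and 14.6 FPKM in alone replicates 1 to 3. All 3 co-culture libraries were above all 3 alone libraries, but co-culture replicate 2 and alone replicate 3 were close, and alone replicate 1 was the lowest of the 6. The means were 15.7 ± 0.583 FPKM in co-culture and 13.7 ± 0.994 FPKM alone (SD, n = 3 each), a ratio of 1.15 (log2 change 0.18, SE 0.054, limma adjusted p = 0.0251). This call was lost when any of 4 libraries was left out, with limma adjusted p of 0.0651 or 0.0920 when co-culture replicate 1 or 3 was dropped, and of 0.0613 or 0.0517 when alone replicate 1 or 2 was dropped. It was also lost without the filter on low values (0.107).

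Eif2ak3 encodes PERK, the eIF2α kinase of the endoplasmic reticulum membrane, and lies on chromosome 6 (70844484 to 70905241, plus strand). It was the lowest of the 10 in both groups. It was at 4.503, 4.517 and 4.502 FPKM in co-culture and at 4.79, 4.24 and 4.23 FPKM alone. The co-culture values lay inside the range of the alone values. The log2 change was 0.025 with a 95% interval of −0.10 to 0.15 (limma adjusted p = 0.770), an interval that corresponds to 0.933-fold to 1.11-fold. Of the remaining eIF2α kinases, Eif2ak1, which responds to heme shortage, and Eif2ak2, which responds to double-stranded RNA, were not called either. Eif2ak1 was at 16.1 ± 0.457 FPKM in co-culture and 15.8 ± 0.364 FPKM alone, and Eif2ak2 at 14.05 ± 0.126 FPKM in co-culture and 13.4 ± 0.256 FPKM alone (SD, n = 3 each).

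The ATF and CHOP factors were mostly lower. Atf4, on chromosome 15 (80255184 to 80257545, plus strand), was the most abundant of the 10 in both groups. It was at 435, 420.3 and 430.4 FPKM in co-culture and at 526, 503 and 502 FPKM alone. The lowest alone library was well above the highest co-culture library. The mean was 428 ± 7.36 FPKM in co-culture and 510.4 ± 13.7 FPKM alone (SD, n = 3 each), 1.19-fold lower (log2 change −0.25, SE 0.037, limma adjusted p = 6.14e-04). Counts were large, at 77359 reads over the 3 co-culture libraries and 99221 over the 3 alone libraries.

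Atf5, a related factor whose mRNA is also translated under stress, lies on chromosome 7 (44812256 to 44816658, minus strand) and changed more. It was at 68.7, 72.4 and 65.8 FPKM in co-culture and at 91.4, 93.5 and 89.9 FPKM alone. The gap between the groups was wider than the whole range within either of them. Its mean was 1.33-fold lower in co-culture (log2 change −0.41, SE 0.040, limma adjusted p = 5.07e-05).

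Ddit3, on chromosome 10 (127290793 to 127296291, plus strand), was at 20.2, 18.9 and 18.1 FPKM in co-culture and at 27.5, 25.6 and 26.9 FPKM alone. Every co-culture library was below every alone library. The means were 19.1 ± 1.06 FPKM in co-culture and 26.6 ± 0.971 FPKM alone (SD, n = 3 each), 1.40-fold lower (log2 change −0.46, SE 0.047, limma adjusted p = 6.17e-05). Only 192 of the 10055 tested genes had a more negative log2 change.

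Nupr1 encodes a small chromatin-associated cofactor that ATF4 induces, and lies on chromosome 7 (126623246 to 126625470, minus strand). It was at 41.1, 42.3 and 38.6 FPKM in co-culture and at 49.1, 44.0 and 46.5 FPKM alone. The groups were separated, though by less than the spread within each. It fell by 0.19 on the log2 scale in co-culture (1.14-fold lower, SE 0.048, limma adjusted p = 0.0133), the smallest of the 6 falls. The call was lost without co-culture replicate 3 (limma adjusted p = 0.0584) and without the filter on low values (0.0775).

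Atf3, on chromosome 1 (191170296 to 191183333, minus strand), encodes a stress-induced factor that acts mostly as a repressor and is a known ATF4 target. It was at 15.002, 14.0 and 13.1 FPKM in co-culture and at 13.7, 13.6 and 14.1 FPKM alone. The co-culture values spread on both sides of the alone values. The log2 change was 0.019 with a 95% interval of −0.094 to 0.13 (limma adjusted p = 0.803), beside −0.33 to −0.17 for Atf4. Atf3 and Nupr1 carry the same response element letters at the same distance from their RefSeq starts, though not from their GENCODE starts. Nupr1 was called lower and Atf3 was not, a difference that was not itself tested.

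The feedback genes differed among themselves. Trib3 encodes a pseudokinase that ATF4 and CHOP induce and that in turn inhibits ATF4 and binds the kinase Akt. It lies on chromosome 2 (152337425 to 152344060, minus strand). It was at 30.9, 31.0 and 28.8 FPKM in co-culture and at 46.5, 46.7 and 49.3 FPKM alone. The 3 libraries of each group lay close together and far from those of the other. The mean was 30.3 ± 1.22 FPKM in co-culture and 47.5 ± 1.54 FPKM alone (SD, n = 3 each), 1.57-fold lower (log2 change −0.63, SE 0.041, limma adjusted p = 3.29e-06). This was the largest change among the 10, and 84 of the 10055 tested genes had a more negative one.

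Ppp1r15a encodes GADD34, the subunit that directs protein phosphatase 1 to eIF2α and so ends the response. It lies on chromosome 7 (45522917 to 45526268, minus strand) and was at 38.9, 41.3 and 38.2 FPKM in co-culture and at 52.1, 55.1 and 51.9 FPKM alone. The groups did not overlap, and replicate 2 was the highest in both. It was 1.34-fold lower in co-culture (log2 change −0.42, SE 0.041, limma adjusted p = 5.03e-05). Its constitutive counterpart Ppp1r15b was not called, at 43.1 ± 1.24 FPKM in co-culture and 41.9 ± 2.01 FPKM alone (SD, n = 3 each). The ranking of the pair by mean FPKM therefore differed between groups, with Ppp1r15a below Ppp1r15b in co-culture and above it alone.

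Sesn2 encodes a sestrin that binds leucine and restrains mTORC1, and it is induced by ATF4. It lies on chromosome 4 (132492804 to 132510456, minus strand) and was at 24.8, 25.0 and 23.1 FPKM in co-culture and at 24.2, 24.1 and 24.6 FPKM alone. The alone values lay inside the range of the co-culture values. The log2 change was −0.0022 with a 95% interval of −0.091 to 0.087 (limma adjusted p = 0.971). Its paralogue Sesn1, known as a target of p53 and FoxO factors, rose to 22.8 ± 0.367 FPKM in co-culture, against 15.5 ± 0.772 FPKM alone (SD, n = 3 each; log2 change 0.53, limma adjusted p = 1.51e-05). The third sestrin gene, Sesn3, was at 20.5 ± 0.974 FPKM in co-culture and 20.9 ± 3.66 FPKM alone, and was not called.

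**Figure D2:**
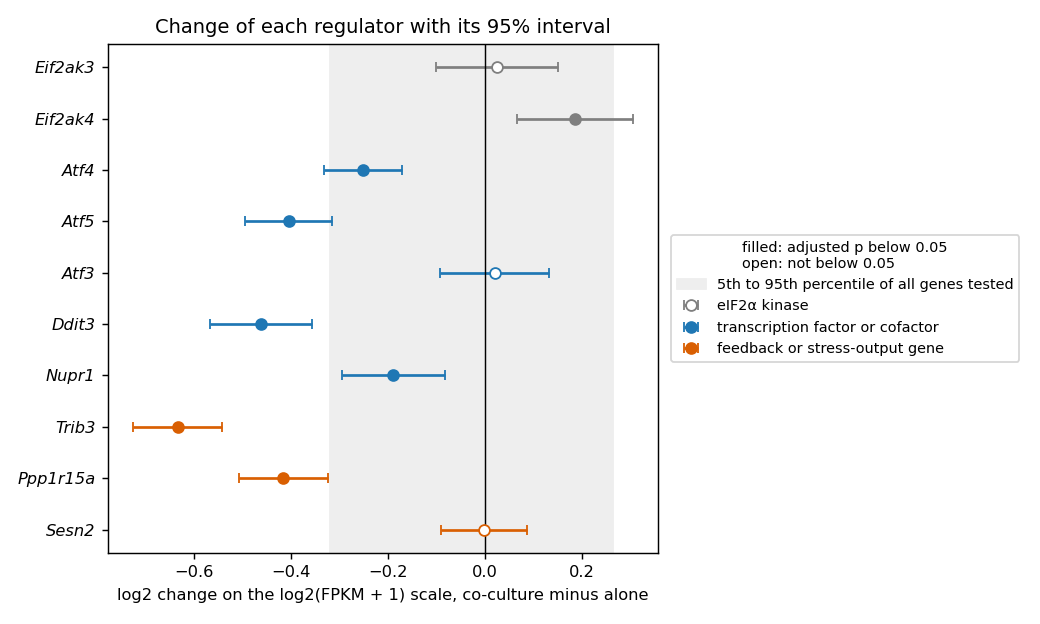
Log2 change (co-culture minus alone, on the log2(FPKM + 1) scale) of each regulator with its 95% interval from limma. Filled points passed the adjusted p threshold of 0.05 and open points did not, colours give the role, and the grey band spans the 5th to 95th percentile of all genes tested (−0.32 to 0.26). Trib3, Ddit3, Ppp1r15a and Atf5 lie below the band.

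By role, the 2 kinases had log2 changes of 0.025 and 0.18, the 5 factors had a median of −0.25 (4 lower, 1 not called) and the 3 feedback and stress-output genes a median of −0.42 (2 lower, 1 not called). Over all genes tested the median was −0.0037, with 17.9% called lower and 13.9% higher. The difference between roles was not tested. In the order of mean levels, Atf4 and then Atf5 were the highest and Eif2ak3 the lowest in both groups, while the 7 genes between them differed in rank. The mean FPKM of Atf4 was 95.1-fold above that of Eif2ak3 in co-culture and 115-fold above it alone. Most neighbours in the order were separated beyond their ranges. Those whose ranges overlapped were Nupr1 and Ppp1r15a in co-culture, and Trib3 with Nupr1 and Atf3 with Eif2ak4 alone. Nupr1 ranked above Ppp1r15a and Trib3 in co-culture and below both alone, Ddit3 below Sesn2 in co-culture and above it alone, and Eif2ak4 above Atf3 in co-culture and below it alone.

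Relative to Atf4 in the same library, the 9 remaining regulators were on both sides. Trib3 was at 6.70% to 7.39% of the Atf4 FPKM in co-culture and at 8.83% to 9.82% alone, and Ddit3 at 4.21% to 4.65% in co-culture and 5.08% to 5.36% alone. Ppp1r15a was at 8.88% to 9.83% of Atf4 in co-culture and 9.90% to 10.9% alone, and Atf5 at 15.3% to 17.2% in co-culture and 17.4% to 18.6% alone. The shares of these 4 genes were lower in co-culture, without overlap between the groups. Sesn2 (5.37% to 5.94% in co-culture, 4.598% to 4.901% alone), Atf3, Eif2ak3 and Eif2ak4 had higher shares in co-culture, also without overlap, while the shares of Nupr1 overlapped. For the 8 without overlap a two-sided exact permutation test gave p = 0.1, the lower limit of the design, so no p adjusted over the 9 ratios can be lower. All 9 ratios share the Atf4 value of the library, and they were chosen after the values of the 10 genes were seen. Atf4 itself was 1.19-fold lower in co-culture, so a gene at an unchanged level has a higher share there. Atf3, Sesn2 and Eif2ak3, with higher shares, were not called by their own levels. How many of all genes tested have ratios to Atf4 without overlap was not computed.

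**Figure D3:**
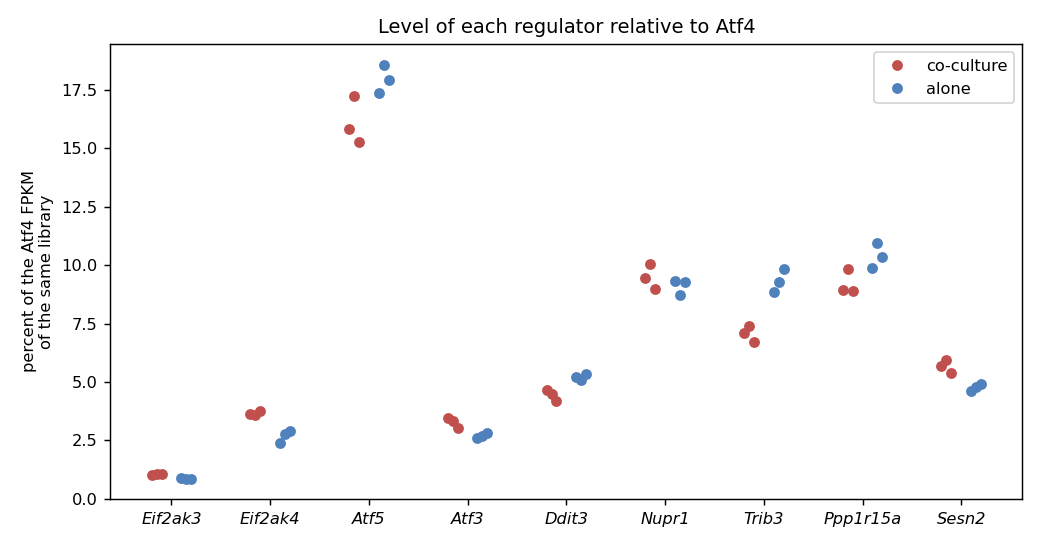
Level of each of the 9 regulators other than Atf4, as a percent of the Atf4 FPKM in the same library (vertical axis from 0), with 1 point per library, co-culture left of alone. Trib3, Ddit3, Ppp1r15a and Atf5 are lower relative to Atf4 in co-culture, the kinases, Atf3 and Sesn2 are higher, and Nupr1 overlaps.

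Known targets of ATF4 and CHOP were lower with few exceptions. Of 41 listed genes that the data hold, 37 were tested, and 33 fell, 3 rose and 1 was not called, where 17.9% of all genes tested were called lower and 13.9% higher. The list was chosen with earlier results of these data known, so these counts are a description. The median log2 change of the 37 was −0.45, against −0.0037 for all genes tested, and without any 1 library 32 or 33 were called lower. Falls with the smallest p were those of Cth, the cystathionine γ-lyase of cysteine synthesis (19.2 ± 0.471 FPKM in co-culture and 44.8 ± 2.35 FPKM alone, log2 change −1.18), Mthfd2 (−0.85), an enzyme of mitochondrial folate metabolism, Ero1a (105.4 ± 8.31 FPKM in co-culture and 215 ± 8.39 FPKM alone, −1.02), an oxidase of the endoplasmic reticulum, Fgf21 (0.427 ± 0.0787 FPKM in co-culture and 4.45 ± 0.871 FPKM alone, a 10.4-fold lower mean and −1.92 on the log2(FPKM + 1) scale), a stress hormone, Shmt2 (−0.72), the mitochondrial serine hydroxymethyltransferase, and Cebpb (−0.55), all as log2 changes. Asns, the asparagine synthetase that is a standard readout of GCN2 and ATF4, was at 93.6 ± 4.61 FPKM in co-culture and 133 ± 1.83 FPKM alone (SD, n = 3 each; log2 change −0.51, limma adjusted p = 1.11e-05) and was chosen after its value was seen. The 3 that rose, also picked out afterwards, were Txnip (log2 change 0.67), Map1lc3b (0.23) and Bcl2l11 (0.16), genes of glucose uptake control, autophagy and apoptosis. Among the falls named above, that of Fgf21 rests on few reads, 42 over the 3 co-culture libraries and 472 over the 3 alone libraries. Its co-culture mean of 0.427 FPKM is below 1 FPKM, so Fgf21 passed the filter only through the alone group.

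The 4 targets below the filter were not tested. Gdf15, a secreted stress cytokine, had 13 reads over the 3 co-culture libraries and 51 over the 3 alone libraries, a mean of 0.0650 FPKM in co-culture and 0.244 FPKM alone. Slc7a3, Bbc3 and Stc2 were at means below 1 FPKM in both groups.

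Other ATF, C/EBP and related leucine zipper factors were lower or not called. Of 12 tested genes of that list 8 fell and 4 were not called (median log2 change −0.26). Among all genes tested 17.9% were called lower and 13.9% higher. The list also holds Nfe2l1 and Nfe2l2, which encode the CNC factors NRF1 and NRF2 and belong to neither family, and both fell. The smallest p belonged to Nfe2l2 (59.02 ± 0.234 FPKM in co-culture and 89.3 ± 1.30 FPKM alone, log2 change −0.59), Cebpb, Cebpg, the usual partner of ATF4 (10.5 ± 0.462 FPKM in co-culture and 16.3 ± 0.534 FPKM alone, log2 change −0.59), and Crebzf (−0.45). Jdp2, a close relative of Atf3, was at 15.3 ± 0.464 FPKM in co-culture and 18.6 ± 0.654 FPKM alone (log2 change −0.27, limma adjusted p = 0.00108). In the other branches of the unfolded protein response, 15 of 19 tested genes of the IRE1 and ATF6 list fell and 4 were not called (median log2 change −0.20). The median over all genes tested was −0.0037, and 17.9% of them were called lower. Ern1, the gene of the sensor IRE1, was at 3.11 ± 0.138 FPKM in co-culture and 6.10 ± 0.356 FPKM alone (log2 change −0.79). The chaperone genes Hyou1 (−0.38) and Hspa5 (−0.40) and the IRE1 substrate gene Xbp1 (−0.33) followed, as log2 changes. Atf6 stands on both lists, and Cebpb, Cebpg and Jdp2 also stand among the targets.

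The core machinery had small log2 changes. Over all genes tested, 17.9% were called lower and 13.9% higher, against which the counts of these short lists are to be read. Of the 8 genes of eIF2 and its exchange factor eIF2B 3 fell (median log2 change −0.072). They were Eif2s1, which encodes the α subunit that the kinases phosphorylate (33.5 ± 0.185 FPKM in co-culture and 37.3 ± 0.453 FPKM alone, log2 change −0.15), Eif2b2 (−0.15) and Eif2b3 (−0.20). Without co-culture replicate 3 the 3 calls fell to 1, that of Eif2s1. Of 4 phosphatase partners Ppp1ca (−0.10) and Ppp1cb (−0.12) fell. Dropping either replicate 2 left 1 of these calls, and dropping alone replicate 3, or either of the co-culture replicates 1 and 3, left 0 by limma, with both at an unadjusted p under 0.05. Of 8 tested kinases and kinase regulators Dnajc3, an inhibitor of PERK, fell (−0.13) and Impact, an inhibitor of GCN2, rose (0.13). The call on Impact was lost without any 1 of the 6 libraries (limma adjusted p of 0.0516 to 0.154) and under median-ratio scaling (0.0524) and TPM scaling (0.0843), and that on Dnajc3 by dropping replicate 1 or 3 of co-culture or replicate 2 or 3 alone (0.0506 to 0.102). Trib1 was not called (0.048) and Trib2 fell (−0.20, limma adjusted p = 0.0174, and 0.0611 without alone replicate 3), both as log2 changes. Among the 8 paralogues of the regulators, 2 fell and Sesn1 rose, and without alone replicate 3 the 2 numbered 1.

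**Figure D4:**
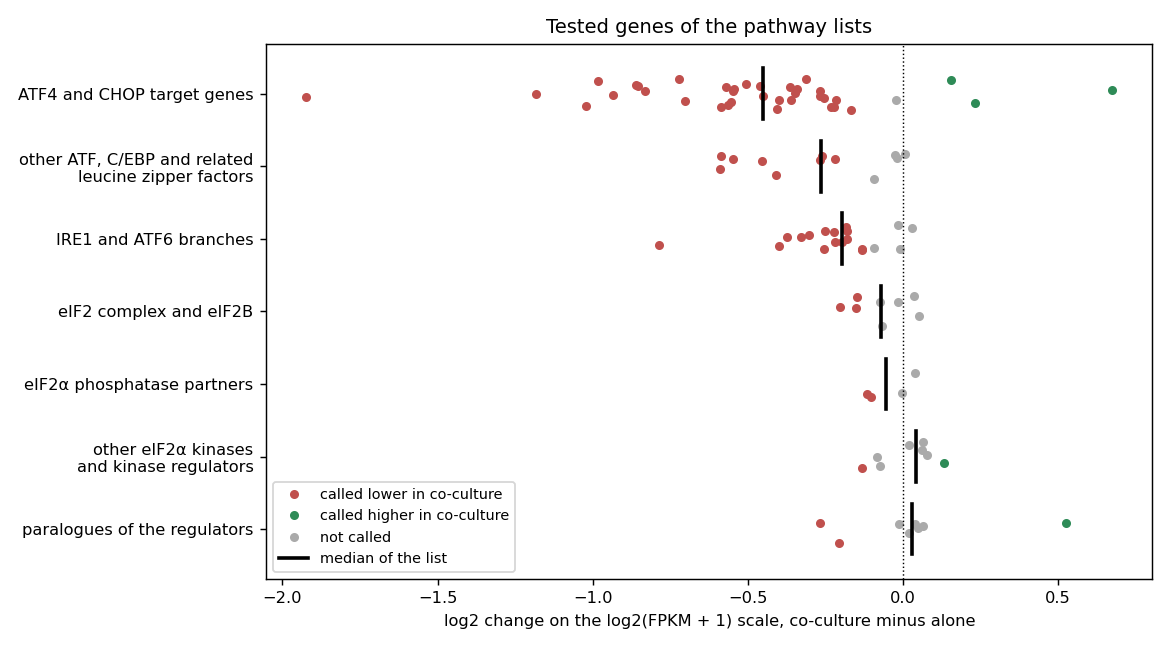
Log2 change (co-culture minus alone, on the log2(FPKM + 1) scale) of each tested gene of the 7 pathway lists, 1 point per gene, coloured by the call at an adjusted p below 0.05, with the median of each list as a black bar. The target list has the most negative median (−0.45), and the lists of eIF2 and eIF2B, phosphatase partners, kinase regulators and paralogues have medians between −0.072 and 0.041.

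Over the 6 libraries, the genes most like Atf4 by Pearson's r of log2(FPKM + 1) were Nyap1, Igfbp4, Ss18l1 and Tfdp1, with r between 0.997 and 0.999. Those most like Ddit3 were Atic, Derl1, Mphosph10, Fkbp4 and Coq10b, with r between 0.995 and 0.997. All of these were called lower in co-culture. With 2 groups of 3 such r mostly reflect the difference between groups, and 512 genes had an r of at least 0.95 with Atf4 and 516 with Ddit3.

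For 4 regulators an annotated exon is shared with a gene on the opposite strand (GENCODE M21), and whether counting used strand is not given in the sources used here. Ddit3 shares 68 of its 1713 exonic bases with the methionyl-tRNA synthetase gene Mars1, which was not called (19.6 ± 0.631 FPKM in co-culture and 20.9 ± 0.334 FPKM alone; SD, n = 3 each). Atf5 shares 82 of 1993 with Nup62, which was not called either (11.2 ± 0.163 FPKM in co-culture and 10.3 ± 0.104 FPKM alone). Ppp1r15a shares 12 of 2937 with Tulp2, and Eif2ak3 shares 485 of 6026 with Gm43292. Their part in the levels was not tested.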

How the data were processed

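The authors deposited FPKM values for 21436 genes in 6 libraries, 3 per group. TRIzol extraction and the VAHTS Universal V6 library kit are stated per the labels' protocols. Tools listed by the submitters' processing notes are fastp, HISAT2 and HTSeq, with the mm10 build. Not given in the sources used here were tool versions, the annotation, the strand setting and how human reads were treated. From the deposited FPKM, whole reads were recovered for all 21436 genes (tolerance 1e-06 on ratios between libraries), scaled by the 1545 bp of mt-Co1.

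limma 3.58.1 in R 4.3.3 (lmFit, eBayes with a trend) was fitted to log2(FPKM + 1), co-culture minus alone, on the 10055 genes whose mean reached 1 FPKM, and p-values were adjusted over all of them. Fold changes are ratios of mean FPKM, while log2 changes refer to log2(FPKM + 1) and so understate those of low genes. The 10 regulators, the 7 pathway lists and the 6 marker lists were chosen with earlier results of these data known. Beyond the regulators, the genes named are up to 4 called genes per pathway list by smallest p (6 for targets), all paralogues, and the 5 genes most like Atf4 and most like Ddit3, with exceptions stated; 1 gene of the Atf4 set is not reported here. Results were recomputed under 17 alternatives: pseudocounts of 0.1 and 0.01, no filter, a filter at 5 FPKM, median-ratio and TPM scaling, no trend, array weights, limma-voom on recovered reads, a replicate block, the omission of each library in turn, and a threshold of 0.01.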

Additional observations from a re-analysis of the deposited data

How the results depend on the processing

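Atf4, Atf5, Ddit3, Trib3 and Ppp1r15a kept direction and call under all 17 alternatives, with limma adjusted p of at most 0.00956. Atf3, Sesn2 and Eif2ak3 stayed uncalled in each that could test them (Eif2ak3 is below 5 FPKM). Trib3 ranged from −0.65 to −0.60 and Atf4 from −0.26 to −0.23 on the log2 scale. Of 169 values of the regulators under alternatives 9 lost the call, all of them for Eif2ak4 and Nupr1, and of 474 values of 28 other named genes 39 lost it and 1 gained it (Sesn3 without alone replicate 1, adjusted p = 0.0378). No called gene changed sign, while the uncalled Atf3 (−0.027 to 0.065), Sesn2 (−0.022 to 0.031) and Eif2ak3 (−0.0010 to 0.073) lay on both sides of 0 on the log2 scale. The cause was not tested.

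At an adjusted p below 0.01, 1073 of all genes were lower and 635 higher, 0 regulators were higher, 1 eIF2 or eIF2B gene and 1 paralogue were lower, and the kinase regulators (0 lower, 0 higher) and phosphatase partners (0 lower) had no call by limma. Without a filter 0 regulators and 0 kinase regulators were higher and 1 paralogue was lower. Median-ratio scaling and TPM scaling each left 0 kinase regulators higher, and no trend left 0 phosphatase partners lower. At an unadjusted p under 0.05 these counts of 0 were 1 or 2, and limma-voom on recovered reads called 1 regulator and 1 kinase regulator higher and 1 kinase regulator and 2 phosphatase partners lower. Without 1 library in turn, 5 to 6 regulators were lower and 0 to 1 higher. Ranges were 1380 to 1747 lower and 919 to 1427 higher for all genes (919 without co-culture replicate 3), 1 to 3 lower for eIF2 and eIF2B, 0 to 1 lower and 0 to 0 higher for kinase regulators, 0 to 2 lower for phosphatase partners and 1 to 3 lower for paralogues.

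With the replicate number as a block, 6 regulators were lower and 1 was higher, 0 kinase regulators were higher and 1 phosphatase partner was lower (1640 lower and 1258 higher over all genes). No pairing by number was seen: deviations of same-numbered libraries correlated at −0.044, 0.11 and −0.083, and those of differently numbered ones at −0.12 to 0.17. With 3 libraries per group a weak shared effect could be missed, so pairing is not excluded.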
